A study of Astatotilapia calliptera and Pundamilia nyererei and Oreochromis niloticus with 31 samples.

Results

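The data are small RNA libraries from the gonads of wild-type Pundamilia nyererei (PN), a haplochromine cichlid chosen to represent Lake Victoria. They comprise 4 libraries from testes and 2 from ovaries, of 31 libraries in the series, and the question asked of them is which transposable element (TE) families had more or fewer small RNAs in one organ than in the other. Both groups carried the same genotype label and received no treatment, no age is given in the labels, and the methods describe the replicates as separate individuals matched for size. Ovary libraries that did not pass quality control were dropped by the authors, who linked the failures to yolk. Every TE family in the PN table with a value other than 0 in at least 1 library was taken as a member, which gave 716 of 726 families, and the remaining 10 were listed at 0 in all 6 libraries. The table holds TE families only and no genes, so the organ labels could not be checked against marker genes of testis or ovary.

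PIWI-interacting RNAs (piRNAs) are small RNAs of animal germ cells that are loaded onto Piwi proteins and guide them to complementary transcripts, above all those of TEs. In the nucleus this leads to transcriptional silencing, and in the cytoplasm it leads to cleavage of the transcript, which in the ping-pong cycle yields further piRNAs. The reads counted here were selected by length alone, so those that match a TE family stand for its piRNAs only approximately. In a bulk gonad, a change in the number of germ cells and a change in piRNAs per cell cannot be told apart.

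Each value is a regularised log (rlog) of the reads of the piRNA size range assigned to a family, on the log2 scale, so that a difference of 1 is a doubling. The rlog transformation draws differences between libraries towards 0 where reads are few. Depth is not kept in such values. By the read totals of the study, the ovary libraries had fewer reads of this size than the testis libraries. They also had far fewer reads assigned to TEs, so fewer reads lie behind their values. The part of depth in the spread between the ovaries, given below, was not tested. Family identifiers come from automated repeat modelling of a fragmented genome assembly (PunNye1.0) and carry neither a name nor a TE class in the table. Identifiers are therefore printed for 4 families only, and the other families are described by level, rank and count.

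Of the 716 families, 609 were tested, those whose mean over the 6 libraries reached 3.32 on the log2 scale (a linear value of 10). The 107 families below this minimum had a median level of 1.84. Their changes (testes minus ovaries) ran from -1.59 to 0.39, with a median of -0.02. On either side of the minimum, the nearest families had means of 3.30 and 3.38. The 4 testes weigh more than the 2 ovaries in this mean, so a family high in ovaries is left out more readily. The family at 3.30 was at 4.26 in ovaries and 2.82 in testes, and that at 3.38 was at 3.66 and 3.24. With limma and Benjamini-Hochberg adjustment over the 609 families, 229 (37.6%) differed between the organs at an adjusted p under 0.05. Relative to the other TE families, values were higher in testes for 131 families (21.5%) and lower in testes for 98 families (16.1%). Without the minimum, 126 families were called higher and 104 lower. No family was called lower after scaling to read totals, as set out further below. The change exceeded 1 on the log2 scale upwards in 35 of the called families and downwards in 29 of them, while 43 of the called families changed by less than 0.5.

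These counts gave every library the same weight, although the 2 ovaries differed from each other far more than the testes did. The median SD within a family was 0.26 between the ovaries and 0.10 between the testes. When limma estimated 1 weight per organ, a setting chosen after the data were seen, a testis library counted 10.2 times as much as an ovary library and 79 families (13.0%) were called. All 79 were among the 229, with 45 higher and 34 lower in testes, and the smallest change called was 0.59 against 0.28 with equal weights. With equal weights the spread of the ovaries is taken to be that of the pooled libraries. The 150 further families rest on that assumption and are the less certain calls. In simulated data with noisier ovaries, equal weights called too many unchanged families, so some of the 150 may be unchanged.

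**Figure D1:**
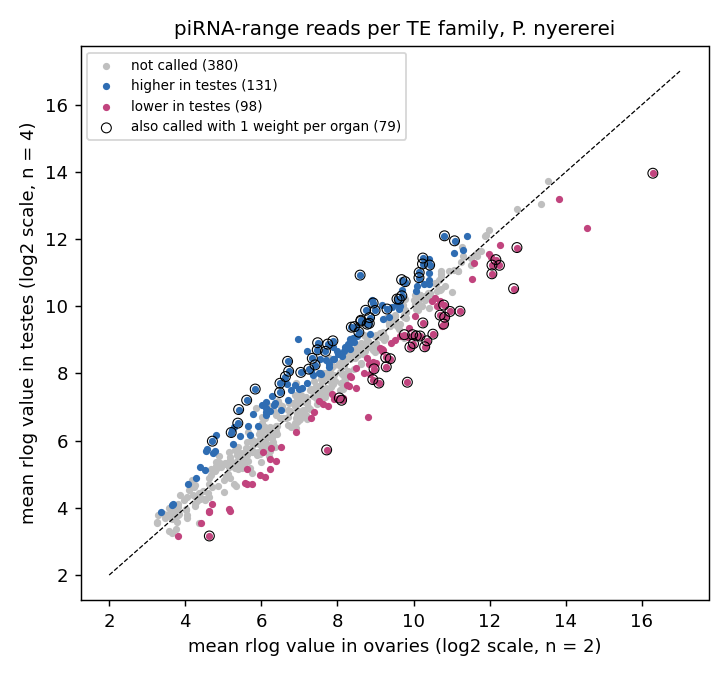
Mean rlog value (log2 scale) of each of the 609 tested families in testes (vertical, n = 4) against ovaries (horizontal, n = 2), with the dashed line marking equality. Blue points are the 131 families called higher in testes and magenta points the 98 called lower. Circles are the 79 that were also called with 1 weight per organ, whose smallest absolute change is 0.59.

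The largest rise in testes was that of rnd-6_family-1792. Its rlog values were 9.24 and 7.95 in ovaries and 10.85, 10.87, 11.01 and 10.98 in testes. All testes stood above both ovaries, and the 2 ovaries lay 1.30 apart whereas the testes were nearly level. The difference was 2.33 (SE 0.31, limma adjusted p = 0.00158), which is 5.04-fold on the rlog scale. With 1 weight per organ the adjusted p was 0.00477. By mean level this was the 81st family, and its rank within single libraries went from 147 and 264 in the ovaries to between 42 and 46 in the testes.

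The second largest rise was that of rnd-4_family-2458, a family of middling abundance. It was at 7.29 and 6.62 in ovaries and at 8.29, 9.27, 9.27 and 9.23 in testes. Here 3 testes were almost identical and testis replicate 1 lay about 1 unit lower, still above both ovaries. The difference was 2.06 (SE 0.32, limma adjusted p = 0.00284), and with 1 weight per organ the adjusted p was 0.0868, so that this call was lost.

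The largest fall was that of rnd-5_family-3975, which was also the most abundant of all families over the 6 libraries. It was at 15.90 and 16.68 in ovaries and at 14.04, 14.09, 14.08 and 13.63 in testes. Both ovaries stood above every testis by more than the gap of 0.78 between them. The difference was -2.33 (SE 0.25, limma adjusted p = 0.000779), that is 5.02-fold higher in ovaries relative to the other TE families. With 1 weight per organ the adjusted p was 0.00763. This family ranked first in both ovaries and in testis replicates 1, 2 and 3, and was at rank 2 in testis replicate 4.

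The second largest fall was that of rnd-4_family-211, the fifth family by mean level. It was at 14.36 and 14.74 in ovaries and at 13.61, 12.06, 12.17 and 11.45 in testes. In this family the testes spread over more than 2 units and the ovaries did not, and testis replicate 1 came close to ovary replicate 1 without reaching it. The difference was -2.23 (SE 0.53, limma adjusted p = 0.0142). With 1 weight per organ the adjusted p was 0.295, so that this call was lost as well. It ranked second in both ovaries and was at rank 3 in testis replicate 1 and at ranks 10, 8 and 25 in testis replicates 2, 3 and 4.

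**Figure D2:**
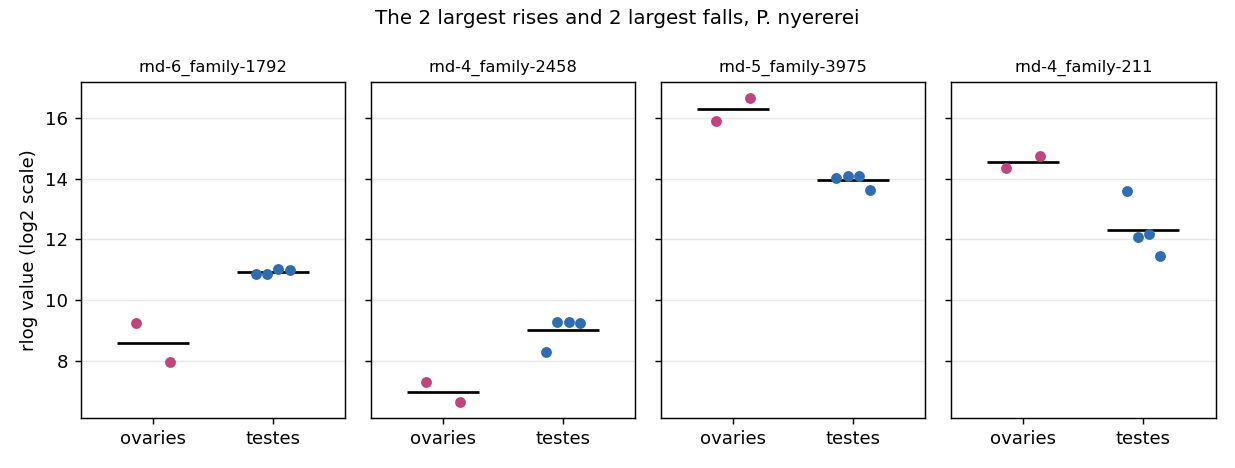
Rlog values (log2 scale) in each library of the 2 families with the largest rise and the 2 with the largest fall in testes, with ovaries in magenta, testes in blue and bars at the group means. The organs do not overlap in any of the 4 families, testis replicate 1 stands below the other testes in rnd-4_family-2458, and the testes spread widely in rnd-4_family-211.

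Without any model, the values of the organs did not overlap in 326 of the 609 families (53.5%). In 185 families all 4 testes lay above both ovaries (30.4%), and in 141 families all 4 lay below them (23.2%). All of the 229 called families were among the 326. The other 97 families did not overlap and were not called.

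The 2 ovary libraries were then compared with each other, because they set the limit of the contrast. The median absolute difference between a pair of libraries was 0.37 between the 2 ovaries, from 0.09 to 0.13 over the 6 pairs of testes, and from 0.37 to 0.46 over the 8 pairs of an ovary and a testis. The ovaries thus stood about as far from each other as ovary replicate 1 stood from the testes. Spearman's rho across families, which are not independent replicates, was 0.971 between the ovaries, 0.992 to 0.997 between testes and 0.946 to 0.969 between organs.

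The order of the families was therefore largely shared by all 6 libraries. Taken singly, either ovary was higher or lower than all 4 testes in 509 families (83.6%), but not always on the same side. In 109 families the testes lay between the ovaries, with ovary replicate 1 above in 61 of them and ovary replicate 2 above in 48. The testis mean differed from both ovaries in the same direction in 413 families (67.8%). This held in all 229 called families, as their lack of overlap requires, and in 184 of the 380 families not called. The change between organs was larger than the gap between the ovaries in 302 of the 609 families and in 215 of the 229 called. The called families were chosen for changes large beside a spread that includes this gap, so their number is no separate support. The ovaries differed by more than 0.5 in 218 families, whereas the 4 testes spanned more than 0.5 in 68.

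**Figure D3:**
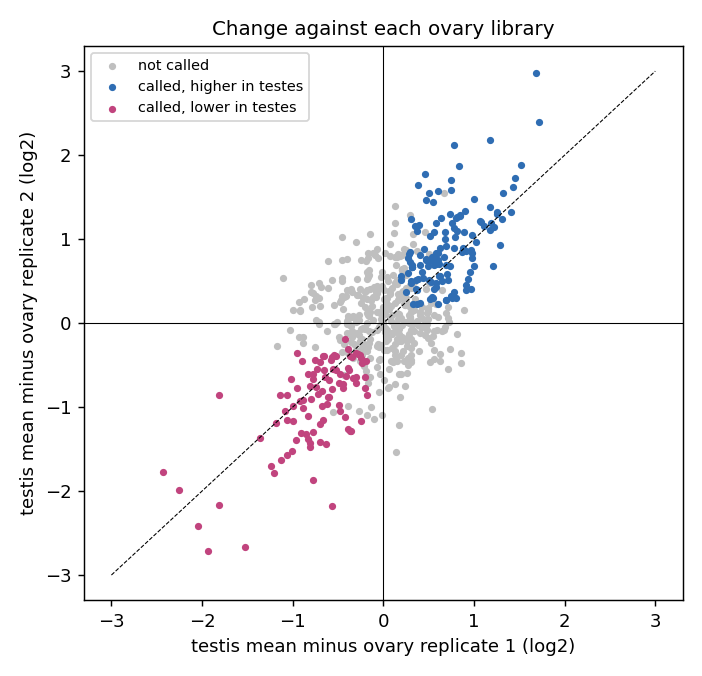
Change of each of the 609 tested families against each ovary alone, as the testis mean minus ovary replicate 1 (horizontal) and minus ovary replicate 2 (vertical), both in log2 units. Blue and magenta points are families called higher and lower in testes, which lie in the quadrants where both ovaries give the same direction, and the grey cloud of the families not called fills all 4 quadrants.

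Over the tested families, the change had a median of 0.07, quartiles of -0.28 and 0.41 and an SD of 0.61. The median was 0.07 against ovary replicate 1 and 0.10 against ovary replicate 2. Its place near 0 reflects the size factors of the authors, which centre the libraries on each other, and does not measure whether one organ had more TE-matching small RNA. The libraries were also scaled to all reads of the piRNA size range in each, with library totals from the published supplement. Every family then moved up in testes by the same 1.66. On that scale, with equal weights, 565 families (92.8%) were called higher by limma and 0 lower. At an unadjusted p under 0.05, 0 were lower too. The common shift exceeds the SD of 0.61. These counts therefore follow largely from the library totals and are not separate results on each family. Of the 98 families called lower on the deposited scale, 54 were then called higher and 6 kept a negative change. The changes reported here are therefore relative to the other TE families, and rnd-5_family-3975 and rnd-4_family-211 were then at -0.66 and -0.56, neither called.

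The families differed by level. They were ordered by their mean over the 6 libraries and cut into 4 level groups of about equal size, from 1 (lowest) to 4 (highest). In level group 1, 34 of 153 families were called, against 47 of 152 in level group 2, 68 of 152 in level group 3 and 80 of 152 in level group 4, beside 37.6% of all tested families. The spread between testes fell over the same groups, with a median SD of 0.15, 0.11, 0.09 and 0.07. The gap between the ovaries fell less evenly, with medians of 0.43, 0.44, 0.30 and 0.35. The part of this spread in the rising share of calls was not tested.

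The direction of the calls was not the same at all levels. Over all tested families, 21.5% were called higher and 16.1% lower in testes. The 4 testes weigh more than the 2 ovaries in the mean level, so families high in testes are placed somewhat higher. In level group 1, 16 families were higher (10.5%) and 18 lower (11.8%) in testes. In level group 2, 32 were higher (21.1%) and 15 lower (9.87%), and in level group 3, 41 were higher (27.0%) and 27 lower (17.8%). In level group 4 the numbers were 42 and 38, and the SD of the change was the largest of the 4 groups there, at 0.71 against 0.52, 0.59 and 0.59 in level groups 1, 2 and 3. The quartiles lay widest apart in level group 2, at -0.24 and 0.51, against -0.33 and 0.38 in level group 4. Changes below -1 were found in 15 families of level group 4 and in 7, 2 and 5 families of level groups 1, 2 and 3. Changes above 1 were found in 8 families of level group 4 and in 5, 14 and 9 families of level groups 1, 2 and 3, with the highest number in level group 2. With 1 weight per organ, 3, 11, 21 and 44 families of level groups 1, 2, 3 and 4 made up the 79 calls. Of these, 2, 8, 13 and 22 were higher in testes and 1, 3, 8 and 22 lower.

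**Figure D4:**
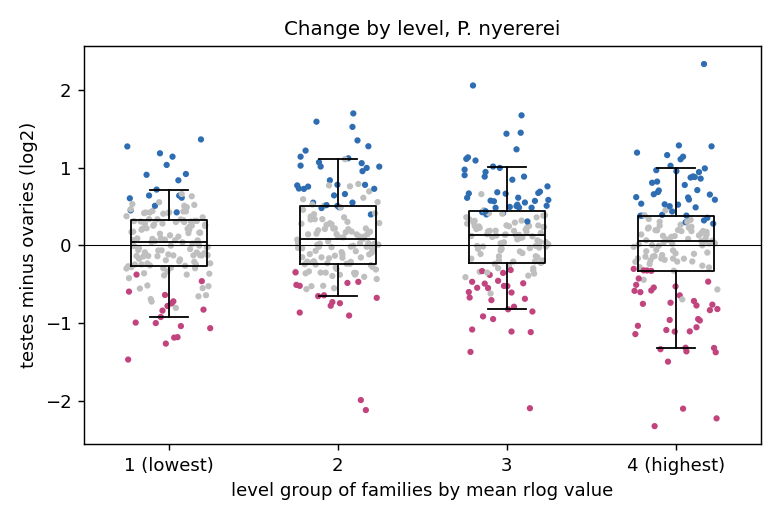
Change between organs (testes minus ovaries, log2) in 4 level groups of the 609 tested families by mean rlog value, with boxes at the median and quartiles and whiskers at the percentiles 5 and 95. Blue and magenta points were called higher and lower in testes, grey points were not called, and level group 4 holds 15 of the 29 families with a change below -1.

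Among the 20 most abundant families, 11 were called (55.0%, against 52.6% of level group 4, to which they belong, and 37.6% of all tested families). Relative to the other TE families, values were higher in testes for 3 of them (15.0%, against 21.5% of all tested families) and lower for 8 (40.0%, against 16.1%). With 1 weight per organ, 5 of the 20 were called, 2 higher and 3 lower. That setting called 44 of 152 families in level group 4 and 79 of all 609 (13.0%), 45 higher and 34 lower. Since the 4 testes weigh more than the 2 ovaries in the mean level, the 20 families were also chosen by the mean of the organ means. That list shared 17 families with the first and held 1 higher and 10 lower. The 20 families highest in ovaries and the 20 highest in testes had 13 in common (65.0% of each list). The 7 found in the ovary list alone ranked between 21 and 58 in testes, and the 7 found in the testis list alone ranked between 21 and 42 in ovaries.

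The pool of TE-matching reads was more concentrated in the ovary libraries than in the testis libraries. Values were returned to the linear scale and summed within each library, which is approximate for shrunken values. The highest family took 14.5% and 21.0% of the sum in the ovaries and 4.56%, 4.89%, 4.73% and 3.98% in the testes. Both ovaries stood far above the testes, and the ovaries differed from each other by more than the whole level in any testis.

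The 10 highest families of each library took 34.9% and 40.6% in ovaries and from 21.0% to 23.5% in testes. The 50 highest took 58.8% and 63.8% in ovaries and from 49.5% to 51.0% in testes. A share of 50% of the sum was reached with 30 and 21 families in ovaries and with 48 to 52 in testes. The organs did not overlap in any of these measures. An exact two-sided permutation test gave p = 0.133 for each. This is the smallest value that the test as run can give for 2 libraries against 4, and this design cannot reach 0.05. Adjusted over the 10 share measures compared, the value was 0.148.

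The leading family did not account for the whole of this difference. With it left out, the 10 highest of the remaining families took 25.2% and 26.1% in ovaries and from 18.9% to 21.0% in testes. The 50 highest took 52.2% and 54.6% in ovaries and from 47.7% to 49.1% in testes. Again neither measure overlapped between the organs (exact permutation p = 0.133, the smallest possible with this test). Of the remaining families, rnd-4_family-211 took 5.00% and 5.46% of the whole sum in ovaries and from 0.772% to 3.38% in testes. Together with the leading family it took 19.5% and 26.5% in ovaries and from 4.29% to 7.95% in testes. The part of rnd-4_family-211 in the remaining difference was not tested.

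**Figure D5:**
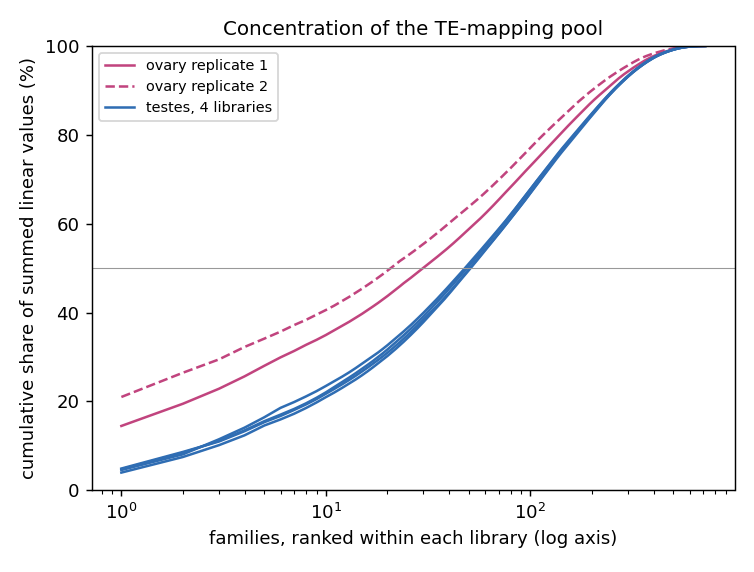
Cumulative share of the summed linear values (%) over the families of each library, ranked from the highest down (log axis), with ovaries in magenta and testes in blue. The 4 testis curves lie on top of each other and start near 4 to 5%, both ovary curves start above them at 14.5% and 21.0%, and all reach 50% between 21 and 52 families.

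The called families held a large part of the pool, with the direction set by their choice. The 98 families called lower took 45.6% and 51.6% of the sum in ovaries and from 22.8% to 26.3% in testes. The 131 families called higher took 10.6% and 13.6% in ovaries and from 24.8% to 26.1% in testes. The 380 tested families not called took 37.7% and 40.7% in ovaries and from 48.8% to 51.0% in testes. The sets were chosen from these same values, so their shares describe the calls and are no separate support for them. In ovaries, 19.5% and 26.5% of the sum came from the 2 named families called lower. In testes these 2 families took from 4.29% to 7.95%, and the sets called higher and lower took similar shares.

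The identifier records the round of repeat modelling in which a family was found, the only annotation of the families in the table. Rounds 1 to 6 contributed 354, 4, 21, 68, 178 and 91 of the 716 families. In round 1, 95 of 282 tested families were called (60 higher, 35 lower), against 21 of 65 in round 4 (9 higher, 12 lower), 70 of 161 in round 5 (39 higher, 31 lower) and 32 of 76 in round 6 (16 higher, 16 lower). These are 33.7%, 32.3%, 43.5% and 42.1%, on either side of the 37.6% of all tested families. Rounds 2 and 3 were small, with 2 of 4 and 9 of 21 called.

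Abundance was unevenly spread over the rounds. Of the 20 most abundant families 10 were from round 5, 5 from round 4, 3 from round 6 and 2 from round 1. Round 1 took 22.6% and 22.1% of the sum in ovaries and from 27.0% to 28.7% in testes. Round 5 took 48.0% and 51.3% in ovaries and from 42.1% to 43.3% in testes. Without the leading family, which belongs to round 5, the round took 39.2% and 38.3% in ovaries and from 39.4% to 40.5% in testes. Both ovaries then stood slightly below every testis, the reverse of the whole sum. Round 6 took 9.86% and 8.03% of the whole sum in ovaries and from 11.4% to 11.8% in testes. Round 4 overlapped between the organs, at 17.3% and 16.7% in ovaries and from 14.4% to 16.8% in testes. Without the leading family, round 4 took 20.2% and 21.1% in ovaries and from 14.9% to 17.6% in testes, with no overlap. Round 1 then took 26.5% and 28.0% in ovaries and from 28.3% to 29.7% in testes, a narrower gap. Round 6 then took 11.5% and 10.2% in ovaries and from 12.0% to 12.4% in testes. Round 4 includes rnd-4_family-211, which alone took 5.00% and 5.46% of the whole sum in ovaries and from 0.772% to 3.38% in testes. The part of this single family in the difference of round 4 was not tested. For the shares of the whole sum, the exact permutation p was 0.133 for rounds 1, 5 and 6 (the smallest possible with this test) and 0.267 for round 4.

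The same organ contrast was set beside that of Astatotilapia calliptera (AC, 4 testes and 3 ovaries, default annotation) and Oreochromis niloticus (ON, 3 testes and 3 ovaries). Each table was normalised on its own. Those with AC also hold AC muscle and testes of Maylandia zebra and Tropheops sp. 'mauve', unlike those of PN and ON. Family identifiers are not shared, so no family was matched and differences between species were not tested. By the same fit with equal weights, 253 of 684 families (37.0%) were called in AC and 418 of 717 (58.3%) in ON. With 1 weight per organ the counts were 222 (32.5%) and 417 (58.2%), beside 37.6% and 13.0% in PN. With the curated annotation of AC, 233 of 554 families (42.1%) were called, and 197 (35.6%) with 1 weight per organ.

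The spread within organs was set side by side too, for AC first with the default annotation. The median absolute difference between 2 ovaries was 0.37 in PN, from 0.24 to 0.32 in AC and from 0.18 to 0.22 in ON, and that between organs was from 0.37 to 0.46 in PN, from 0.34 to 0.45 in AC and from 0.44 to 0.54 in ON. The SD of the change over families was 0.61 in PN, 0.62 in AC and 0.76 in ON. The highest family took from 17.6% to 39.2% of the sum in AC ovaries and from 2.30% to 3.04% in AC testes. In ON it took from 12.4% to 44.0% in ovaries and from 10.8% to 14.9% in testes, where the organs overlapped. With the curated annotation of AC, the highest family took from 9.89% to 24.4% in ovaries and from 1.61% to 1.85% in testes. The median absolute difference was then from 0.17 to 0.21 between ovaries and from 0.28 to 0.41 between organs, and the SD of the change was 0.48.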

How the data were processed

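The authors removed adapters (cutadapt 1.15), mapped reads of the piRNA size range to PunNye1.0 with STAR 2.5.4b, each multi-mapping read being placed once at random, counted them over TE families with featureCounts 1.6.0 and deposited DESeq2 rlog values (log2 scale). Reads that match related families equally well can therefore be divided between them at random. Depth is not kept in these values. The families and groupings were chosen with earlier results of these data known. Testes and ovaries were compared with limma 3.58.1 in R 4.3.3 (mean trend, Benjamini-Hochberg over 609 families, adjusted p under 0.05) without covariates. P-values measure the spread between these libraries only. The fit was tested on simulated data, where with noisier ovaries it called too many unchanged families at equal weights and fewer with 1 weight per organ, a setting added after the unequal spread of the organs was seen. Named families are the 2 largest rises and 2 largest falls among called families without overlap. Alternatives were other minimums, scalings, pseudocounts, weights and variance priors, a replicate block, the mean in place of the median, and each library left out. No sequencing batch is given in the labels. Count models were not run, since rlog values are not counts. Python 3.11.15 was used for tables (pandas 2.3.3, numpy 2.4.6), permutation tests (scipy 1.17.1) and figures (matplotlib 3.10.9). No TE sequence was used here.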

Additional observations from a re-analysis of the deposited data

Results flagged for a closer look

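In each of 2 named families, 1 testis library stood apart from the other 3 by Dixon's test. In rnd-4_family-2458, testis replicate 1 was at 8.29 and the others between 9.23 and 9.27, a gap of 0.963 of the range. In rnd-5_family-3975, testis replicate 4 was at 13.63 and the others between 14.04 and 14.09, a gap of 0.886 of the range. Chance flags about 1 in 20 groups. Over all 609 tested families 27 (4.43%) stood apart in this way, 12 of them through testis replicate 1, 7 through replicate 2, 3 through replicate 3 and 5 through replicate 4.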

How the results depend on the processing

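The number of families called was most affected by weights and by scaling. It was 81 (46 higher, 35 lower) with limma array weights, 79 (45 and 34) with 1 weight per organ, and 565 (565 and 0) with libraries scaled to reads of the piRNA size range. Scaled to the TE total, 263 were higher and 48 lower. Without overlap, 552 families lay above and 1 below under scaling to reads, and 317 and 66 under scaling to the TE total. Counts without overlap can only stay the same or rise when a library is left out, as is done below. The median change was 0.026 without a minimum, 1.74 scaled to reads, 0.41 scaled to the TE total and 0.19 scaled to the TE total without the leading family. With each library left out, from 166 to 368 families were called, from 95 to 212 higher and from 70 to 156 lower, from 191 to 292 lay above and from 145 to 234 below without overlap, and the median ranged from 0.0675 to 0.0976. Without ovary replicate 1 the count was 368 and without ovary replicate 2 it was 331, where the lone ovary is assumed to vary like the testes. Replicate numbers 1 and 2 occur in both organs but nothing states that they link individuals, and the deviations of same-numbered libraries correlated at 0.12 and -0.0046. With the replicate block 119 families were called (72 higher, 47 lower), 116 of them among the 229. Of the named families, rnd-6_family-1792 was called under every alternative. Array weights ended the calls of rnd-4_family-2458 (adjusted p = 0.0528) and rnd-4_family-211 (adjusted p = 0.197). No named family changed direction under the alternatives run. With 2 ovaries, many small changes could be missed. The smallest change called was 0.28 with equal weights and 0.59 with 1 weight per organ, and changes of rare families are shrunken.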
